A study of Mus musculus with 73 samples.

Results

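The 1061 FoxA binding sites described here had a low methylation level in control hepatocytes and a high one in hepatocytes that lost Foxa1 and Foxa2 during liver development. They were taken from the authors' list of hyper-methylated sites as those whose mean level in the 2 control whole-genome bisulfite sequencing (WGBS) libraries was below 20%. The other 1644 listed sites had a control level of 20% or more, and the whole table held 33302 FoxA sites of 400 bp. Every one of the 1061 sites gained more than 20 points in the 2 developmental null libraries, and no unlisted site did. Control and developmental null WGBS levels therefore chose the sites and are given as a description without a test. Sites are called low-control sites below, and are compared with the 20679 unlisted FoxA sites whose control level was also below 20%.

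FoxA1, FoxA2 and FoxA3 are forkhead transcription factors that bind DNA within compacted chromatin and open regulatory elements of the liver. Methylation of cytosine at CpG dinucleotides is usually high across the genome and low at active promoters and enhancers. HNF6, a homeodomain factor of hepatocytes and bile duct cells encoded by Onecut1, shares many liver enhancers with the FoxA proteins.

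WGBS was made from perfused hepatocytes of mice labelled Foxa1L/L;2L/L, in which Cre can delete both genes. The 2 controls had no Cre, the 2 developmental nulls carried the Alfp Cre transgene, which acts in the embryonic liver, and the 2 adult nulls had received AAV8 with Cre under the hepatocyte-specific Tbg promoter. Per the labels, controls and developmental nulls were 8 weeks old, and the adult group was injected at 8 weeks of age and kept for 1 month. Reduced representation bisulfite sequencing (RRBS), which reads CpG-rich fragments, was made in 27 libraries; the labels give the tissue as liver and the protocol names hepatocyte DNA, so it is unsure whether other liver cells were included. Its age series held 1 control and 1 FoxA developmental double null at each of 20 days, 8 weeks, 4 months and 6 months; the labels give no genotype for these controls and do not name the Cre. A further 2 livers were FoxA1L/L;FoxA2L/+ and 2 were FoxA1L/+;FoxA2L/+, all depleted in development and 8 weeks old. FoxA triple nulls were taken 7 days (n = 3, 9 weeks old) and 13 days (n = 2, 12 weeks old) after Cre, and their controls (n = 3 and 2) were FoxA1L/L;FoxA2L;L;FoxA3-/- livers given GFP, so that both arms lacked FoxA3. Adult double nulls (n = 3) and controls given AAV GFP (n = 2), 12 weeks old, had all undergone partial hepatectomy. HNF6 chromatin immunoprecipitation (ChIP) was made from 3 Foxa1L/L;2L/L controls, 2 Alfp Cre and 2 AAV Cre livers, each with its input. The labels do not say whether RRBS, WGBS and ChIP used the same animals, and where nothing says that libraries came from separate animals, p-values measure the spread between these libraries.

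Levels come without read numbers, which leaves their depth unknown, and no interval of a level was computed. Of 817277 RRBS tiles of 100 bp, 445198 to 622668 had a value in a given library. HNF6 ChIP libraries held 16760874 to 30469386 tags, per the file headers. All positions are of the mouse mm9 build; no gene annotation of that build was used, so sites are named by position alone.

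In the controls most low-control sites carried some methylation, and few were empty. Their median level was 9.80% in control 1 and 12.8% in control 2, with 10th to 90th percentiles of 3.16% to 17.8% and 5.04% to 21.1%. Only 51 sites were listed at 0% in control 1 and 13 in control 2. Control 2 was the higher library at 719 sites and control 1 at 335. The unlisted low sites lay lower, at a mean of 7.19% ± 1.23 (SD, n = 2) against 11.6% ± 2.05 at the 1061 sites. The share of sites that belonged to the list climbed with the control level: 3.65% of FoxA sites with a control level from 5 to 10%, 9.43% of those from 10 to 15%, and 14.4% of those from 15 to 20%.

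In the developmental nulls the low-control sites held intermediate levels rather than full methylation. The median was 42.0% in the first developmental null and 43.0% in the second, and the means were 44.6% and 46.0%. A level of 50% or more was reached at 320 sites (30.2%), and one of 80% or more at 24 sites. The gain ranged from just over 20 points to 88.4, with a median of 29.6. The median gain differed little with the starting level, from 28.7 points at sites from 5 to 10% to 31.2 at sites from 15 to 20%, so that sites starting higher also ended higher. The limit of 20 points held at every starting level, so the choice of sites itself shapes both patterns. Both developmental nulls lay above both controls at 1058 sites, a count that the required gain of more than 20 points largely sets.

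The steepest gains show what the whole range looks like at single sites. At chr16:52267337-52267736 the controls had 3.33% and 12.7%, the developmental nulls 95.7% and 97.2%, and the adult nulls 23.6% and 10.6%. At chr12:92170469-92170868 the controls had 3.77% and 21.6%, the developmental nulls 100% and 97.1%, and the adult nulls 15.1% and 8.00%. The developmental nulls were close to complete methylation at both, while the ranges of adult nulls and controls overlapped. At chr3:55817771-55818170 the levels were 3.13% and 20.0% in controls, 91.4% and 94.3% in developmental nulls, and 45% and 6.82% in adult nulls, which differed widely from each other. At chr6:59506893-59507292 they were 15.6% and 11.1%, 89.3% and 100%, and 24.0% and 25.0%. At chr7:52469093-52469492 they were 23.8% and 7.07%, 95.8% and 93.3%, and 17.8% and 23.9%. Of these sites, only the one on chromosome 6 had both adult nulls above both controls. At chr13:38828124-38828523 both adult nulls, 15.4% and 16.1%, also lay above the controls, 5.88% and 7.69%, and far below the developmental nulls, 88.5% and 82.4%.

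The thresholds of the rule cut through a continuous range. Just inside the control limit were chr6:7802791-7803190, at 19.94%, and chr8:64047884-64048283, at 19.93%; just outside it were listed sites at 20% on chromosome 18 and at 20.01% at chr9:65655245-65655644. The 2 smallest gains among the low-control sites were 20.004 points at chr1:57445674-57446073 and 20.008 points at chr8:118856873-118857272. The unlisted low sites nearest to the limit gained 19.98 points at chr6:24863485-24863884 and 19.93 points at chr11:85446075-85446474.

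**Figure D1:**
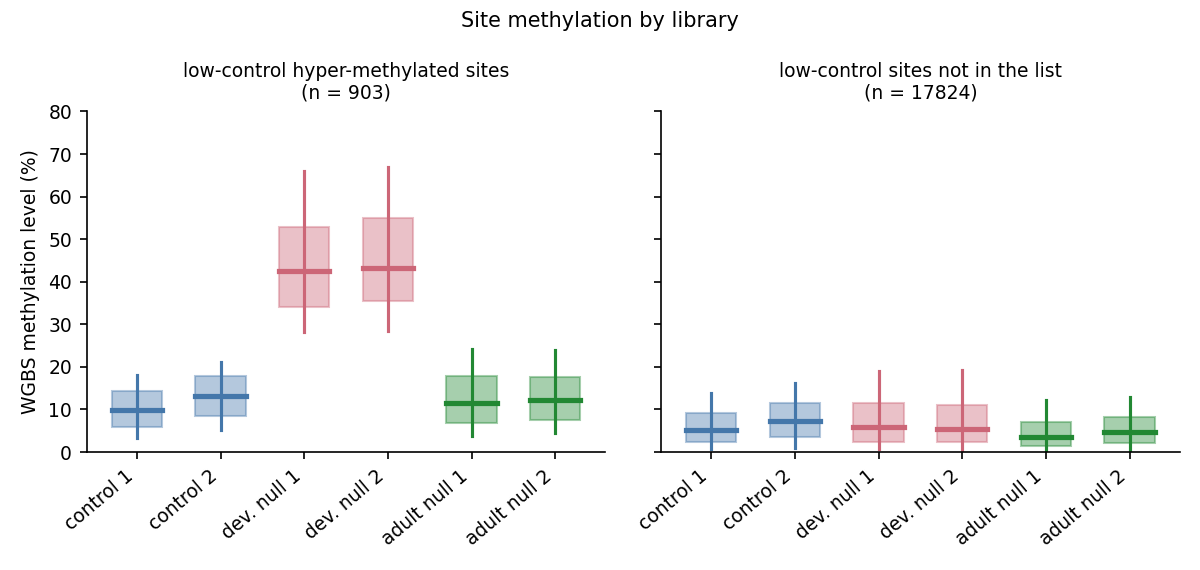
WGBS methylation level (%) in each of the 6 libraries at the 903 low-control hyper-methylated sites present in both tables (left) and at 17824 unlisted low sites (right). The thick line is the median, the box spans the 25th to 75th and the thin line the 10th to 90th percentile; only the developmental nulls stand high at the low-control sites, a separation that the choice of sites fixes, while the adult null medians of 11.5% and 12.3% lie between those of the 2 controls.

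In hepatocytes that lost both genes in adulthood, the low-control sites lay near the level of the controls. The adult nulls were also older than these controls and had received virus. Gene loss, age and virus therefore cannot be told apart in this comparison. Of the 1061 sites, 903 had adult null values; the other 158 lie on chromosomes 1 and 2 and were not analysed here in adult nulls. Over the 903 sites the mean was 13.3% ± 0.380 (SD, n = 2) after adult loss, 11.8% ± 2.09 (n = 2) in controls and 45.5% ± 1.01 (n = 2) in developmental nulls. The difference of adult nulls from controls was less than the SD between the controls. By limma over all 28654 sites in both tables, 0 of the 903 sites passed an adjusted p of 0.05 in either direction, and the background was 0% higher and 0% lower. At an unadjusted p under 0.05, 32 of the 903 sites (3.54%) were higher and 0 were lower, against 1.53% and 6.5% of all sites. The controls were chosen to be low at these sites, so this direction is not independent of the choice.

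Site by site, the adult nulls lay on both sides of the controls. The median difference of adult nulls from controls was 0.71 points, with a 10th to 90th percentile of -4.67 to 9.08 points. At the unlisted low sites the median was -1.40 points. Both adult nulls lay above both controls at 188 low-control sites (20.8%) and below both at 126 (14.0%), where the background over all sites was 10.2% and 28%. At unlisted low sites these shares were 7.24% and 31.2%. The rule chose the controls to be low, so these directions are not independent of it.

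A gain over 20 points after adult loss occurred at 13 of the 903 sites (1.44%), against 63 of all 28654 sites (0.22%) and 5 of the unlisted low sites. At 3 of the 4 largest the adult null libraries differed widely from each other. At chr9:23856010-23856409 the adult nulls had 40% and 100%, the controls 12.0% and 17.9%, and the developmental nulls 82.1% and 87.5%. At chr9:21705970-21706369 the adult nulls had 30.1% and 72.7% against 13.9% and 16.1% in controls and 48.5% and 36.9% in developmental nulls. At chr6:143510169-143510568 the second adult null had 56.3% and the first 7.32%, and the developmental nulls were split in the same way, at 14.4% and 52.3%, over controls of 2.80% and 6.11%. The adult nulls were close to each other at chr11:115105185-115105584, where they had 44.5% and 49.7% against 17.3% and 20.4% in controls and 52.1% and 50.7% in developmental nulls. The levels fell farthest from controls at chr5:28631617-28632016, with 2.63% and 6.12% in adult nulls and 10.7% and 25.0% in controls, and at chr6:145540131-145540530, listed at 0% in both adult nulls with 8.82% and 17.5% in controls. None of these sites passed the adjusted threshold. The count of gains over 20 points also rests on controls that the rule chose to be low.

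RRBS measured the low-control sites in further libraries and comparisons, and these values were not used to choose the sites. Whether any of these livers also gave a WGBS library is not stated. A tile was assigned to a site when its middle lay inside it, which gave 166 tiles in 104 of the 1061 sites. The 104 sites had a median control WGBS level of 12.8% and a median gain of 27.1 points, against 11.6% and 30.0 points at the other 957. Values in all 27 libraries existed at 51 of these tiles, and these were used for means per library.

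In the age series the developmental nulls stood above the control at each age. Over the 51 tiles the null and the control had means of 41.4% and 24.6% at 20 days, 33.2% and 11.3% at 8 weeks, 28.7% and 8.17% at 4 months, and 32.7% and 7.56% at 6 months. The lowest null was above the highest control, and the differences at the 4 ages were 16.8, 21.9, 20.5 and 25.1 points. At the unlisted low sites the differences at the same ages lay between -0.01 and 0.84 points over 3811 tiles. Listed sites with a higher control level gained as well, by 8.47, 26.3, 20.9 and 28.3 points over 59 tiles. Over all ages their difference was 20.97 points and that of the low-control sites 21.07. Each age had 1 library per genotype, so an age and its library cannot be told apart.

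The 20-day control was the high one of the 4 controls at these sites. It had the highest level of the 4 controls at 36 of 51 tiles (70.6%), against 34.0% of 3811 tiles in unlisted low sites and 20.5% of 327580 tiles outside FoxA sites. Listed sites with a higher control level had the same order at 42 of 59 tiles (71.2%), so it is not particular to low-control sites. Its mean of 24.6% exceeded the other 3 controls, 7.56% to 11.3%, while the mean of tiles outside FoxA sites stayed between 56.9% and 57.4% in all 4 controls. Of the 51 tiles, 10 were at 50% or more in the 20-day control and 1 in each of the later controls. The 20-day developmental null was also the highest of the 4 nulls, at 27 of 51 tiles. With a single library per age these orders have no replicate check.

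**Figure D2:**
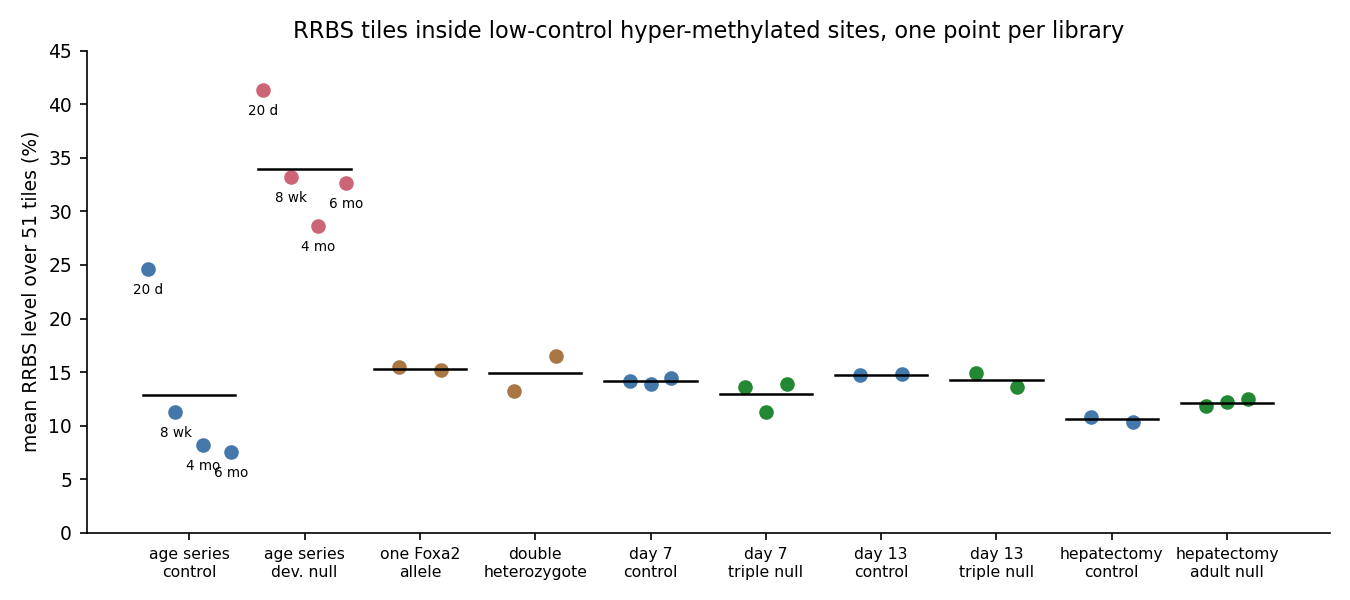
Mean RRBS methylation level (%) over the 51 tiles in low-control sites measured in all 27 libraries; each point is a library, each horizontal line a group mean, and the age series points are labelled with their age. The 4 developmental nulls sit between 28.7% and 41.4%, above every other library, and the 20-day control at 24.6% is the highest of the rest.

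Tested tile by tile with limma over all measured tiles, 16 of 59 low-control tiles rose in the age series nulls and 0 fell. These 16 tiles (27.1%) lay in 14 sites on 10 chromosomes, where the background was 0.176% of 369462 tiles higher and 0.0625% lower. The median difference over the 59 tiles was 18.1 points, against 0.28 over all tiles, and 53 of the 59 differences were positive. Every null lay above every control at 21 of the 59 tiles (35.6%; background 1.93%) and below at 1 (background 0.978%). The null exceeded the control of its own age at all 4 ages at 40 tiles (67.8%; background 7.45%) and was below it at all 4 ages at 2 (background 4.28%). Among the 68 tiles of listed sites with a higher control level 8 rose, and among the 4084 tiles of unlisted low sites 14 rose and 5 fell. The 16 calls became 10 without the 8-week, the 4-month or the 6-month control or without the 20-day null, and 19 without both 20-day libraries. With age as a block 29 tiles passed; same-age libraries deviated together with a correlation over 0.1 at 3 of the 4 ages. With the spread taken from the 8 age series libraries alone, in place of all 27, 1 tile passed.

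At each single age, gains of at least 20 points were found at 41.7% to 51.2% of the tiles. The null was at least 20 points above the control at 35 of 84 tiles (41.7%) at 20 days, where 2.99% of all tiles differed that much. The counts were 32 of 68 (47.1%; background 3.09%) at 8 weeks, 48 of 108 (44.4%; background 3.12%) at 4 months, and 43 of 84 (51.2%; background 3.63%) at 6 months. Falls of that size numbered 3, 0, 0 and 2 (backgrounds 2.24%, 2.1%, 2.5% and 1.63%). Across the 59 tiles, the age series difference correlated with the WGBS gain of the site at r = 0.63 (rho = 0.49); tiles share the libraries, and some share a site.

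The tile with the smallest adjusted p was chr3:121171901-121172000, inside the low-control site chr3:121171735-121172134. Its level was 12.9%, 4.4%, 7.9% and 5.9% in the controls of 20 days, 8 weeks, 4 months and 6 months, and 63.2%, 59.5%, 59.3% and 53.7% in the nulls of those ages. The nulls and the controls were far apart, and each group was narrow. The mean was 58.9% ± 3.92 (SD, n = 4) against 7.78% ± 3.70, a difference of 51.1 points (SE 2.40, limma adjusted p = 7.6e-10), which passed under all 15 other settings tried. In every other library this tile was at 10.5% or lower: 0%, 3.4% and 1.7% in day 7 triple nulls, 3.4% and 0% in day 13 triple nulls, 10.2%, 3.8% and 10.5% in adult nulls after hepatectomy, 0% and 7.9% in FoxA1L/L;FoxA2L/+ livers, and 3.8% and 10.5% in FoxA1L/+;FoxA2L/+ livers. The controls of those experiments had 9.5%, 3.4% and 5.9% at day 7, 2.9% and 2.1% at day 13, and 1.8% and 4.4% after hepatectomy. Both neighbouring tiles of this site, chr3:121171801-121171900 and chr3:121172001-121172100, rose too, by 33.7 and 25.2 points.

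The largest difference was at chr16:32462101-32462200, in a site with a WGBS level of 15.3% in controls, 87.2% after developmental loss and 28.7% after adult loss. The RRBS controls had 8.8%, 20.0%, 14.3% and 16.7% in age order, and the nulls 60.4%, 80.6%, 82.8% and 97.2%. The difference was 65.3 points (SE 8.90, limma adjusted p = 0.00171). This tile was not uniformly low elsewhere: the FoxA1L/L;FoxA2L/+ livers had 88.9% and 43.3%, the FoxA1L/+;FoxA2L/+ livers 43.3% and 45%, the day 13 nulls 52.8% and 57.7%, and their controls 30.0% and 35.7%. The day 7 nulls had 36.5%, 8.6% and 26.0% and their controls 38.9%, 12.5% and 10.0%, which overlapped. After hepatectomy the nulls had 36.7%, 34.6% and 25.0%, above the controls at 16.7% and 21.1%, with a difference of 13.2 points that did not pass (limma adjusted p = 1).

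At chr5:130549201-130549300 the controls had 38.3%, 2.2%, 13.7% and 6.7% from the youngest to the oldest, and the nulls 75%, 80%, 69.4% and 70.9%. The 20-day control was the high one, and all nulls lay above it. The difference was 58.6 points (SE 7.82, limma adjusted p = 0.00147). The FoxA1L/L;FoxA2L/+ livers had 40% and 55.6% there, the FoxA1L/+;FoxA2L/+ livers 45.7% and 25.4%, and the day 13 nulls 53.3% and 52.0% with controls of 52.0% and 30.0%. The day 7 nulls, at 41.8%, 28.0% and 8.8%, overlapped their controls at 21.5%, 25.2% and 8.9%. After hepatectomy all 5 livers were at or below 16.7%.

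Other called tiles had a high 20-day control beside low later ones. At chr4:117015401-117015500 the controls had 55.4%, 14.3%, 0% and 3.6% in age order and the nulls 78.6%, 54.5%, 68.8% and 68.6%. At chr8:129330001-129330100 the controls had 66.7%, 23.7%, 10.96% and 15.4% and the nulls 87.5%, 71.7%, 69.2% and 71.0%. The 20-day control reached the range of the nulls at chromosome 4 and lay just under it at chromosome 8. The differences were 49.3 points (SE 9.88, limma adjusted p = 0.0358) and 45.7 points (SE 8.77, limma adjusted p = 0.0276). The chromosome 4 tile lost its call without any 1 of 6 of the 8 libraries (limma adjusted p up to 0.0945), and the chromosome 8 tile without the control of 8 weeks, 4 months or 6 months or the 20-day null (limma adjusted p up to 0.0769).

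At chromosome 4 the day 7 nulls had 11.8%, 19.3% and 15.2% against 20.0%, 17.9% and 47.6% in their controls. The day 13 nulls had 18.8% and 43.8% there against 30.0% and 11.5%, and the hepatectomy nulls 15.6%, 18.4% and 10.7% against 19% and 15.6%. Nulls and controls overlapped in all 3 experiments. At chromosome 8 the levels were 35.4%, 34.5% and 50.4% against 28.6%, 32.6% and 33.3% at day 7, 48.1% and 30.8% against 25.3% and 41.1% at day 13, and 22.9%, 19.4% and 24.0% against 12.5% and 16.3% after hepatectomy. There the day 7 and hepatectomy nulls lay above their controls, by 8.6 and 7.7 points, and neither passed. The FoxA1L/L;FoxA2L/+ and FoxA1L/+;FoxA2L/+ livers had 21.4% and 42.9%, and 0% and 20.6%, at chromosome 4, and 50.8% and 44.2%, and 30.8% and 41.8%, at chromosome 8.

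At chr9:114725501-114725600 the controls had 16.7%, 3.8%, 5.0% and 11.5% in age order and the nulls 64.3%, 53.1%, 30.2% and 53.1%, with no overlap (difference 40.9 points, SE 6.22, limma adjusted p = 0.00447). All other libraries there were at or below 26.9%, the level of a day 13 control. The day 7 nulls had 13.5%, 3.8% and 2.3% and the day 13 nulls 0% and 15%, and the hepatectomy nulls 5.2%, 18.0% and 10.7%. Further tiles in 4 sites rose by 28.2 to 35.9 points, at chr1:129652501-129652600, chr15:25859901-25860000, chr12:77595001-77595100 and chr15:96439101-96439200. Leaving out single libraries ended the call of chr15:25859901-25860000 for 6 of the 8 libraries, all but the 20-day control and the 4-month null (limma adjusted p up to 0.0829). It ended that of chr12:77595001-77595100 for the control of 4 months or 8 weeks and the null of 20 days or 6 months (up to 0.0636), and that of chr1:129652501-129652600 for the 6-month control and the null of 20 days or 6 months (up to 0.0668). The smallest called rise was 10.6 points, at chr4:153856101-153856200.

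Tiles within low-control sites differed much in level. At 8 weeks the lowest of the 51 tiles in the null was chr1:56596701-56596800, at 0%, where the null of 4 months had 4.2% and those of 20 days and 6 months 17.4%. It was followed by chr1:129652401-129652500, at 5.0%, which directly adjoins the called tile of that site. The highest was chr17:86794101-86794200, at 84.6%, and there the age series controls also had 75%, 70%, 77.3% and 56.7%. That tile was at 45.5% or more in all 27 libraries, although the WGBS control level of its site was 17.9%. The chromosome 16 tile described above was the second highest, at 80.6%.

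After loss in adulthood no low-control tile passed the test, and the levels of nulls and controls were close. Over the 51 tiles the day 7 triple nulls had 13.6%, 11.3% and 13.9% and their controls 14.1%, 13.9% and 14.4%. The day 13 triple nulls had 14.96% and 13.6% and their controls 14.7% and 14.8%. After hepatectomy the adult nulls had 11.8%, 12.2% and 12.5% and the controls 10.8% and 10.4%. The hepatectomy nulls thus all lay above their controls, by 1.57 points in the mean; at listed sites with a higher control level the same difference was 3.42 points and at unlisted low sites -0.02. Of the 3 day 7 nulls, 2 lay below all their controls and 1 at the level of the lowest.

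Single tiles showed the same. By limma 0 of 90 tiles rose or fell at day 7 (background 0.00125% higher, 0.00291% lower), 0 of 80 at day 13 (background 0.00271% and 0.00475%) and 0 of 90 after hepatectomy (background 0.00104% and 0.000828%). At an unadjusted p under 0.05, 1 was higher (1.11%) and 2 lower (2.22%) at day 7, where 2.30% and 1.80% of all tiles were. At day 13 it was 0 and 0, against 2.09% and 2.59% of all tiles, and after hepatectomy 4 (4.44%) and 0, against 2.37% and 2.30%. The median tile differed by -1.88 points at day 7, -0.97 at day 13 and 2.76 after hepatectomy, and the medians over all tiles were 0.01, -0.01 and 0. Groups did not overlap, with the nulls above, at 3 of 90 tiles at day 7 (3.33%; background 5.11%), at 8 of 80 at day 13 (10%; background 12.9%) and at 20 of 90 after hepatectomy (22.2%; background 8.69%). With the nulls below, the counts were 5 (background 4.55%), 10 (background 15.6%) and 8 (background 9%). An absent call does not show equality: with these few libraries almost no tile of the genome passed in these comparisons.

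**Figure D3:**
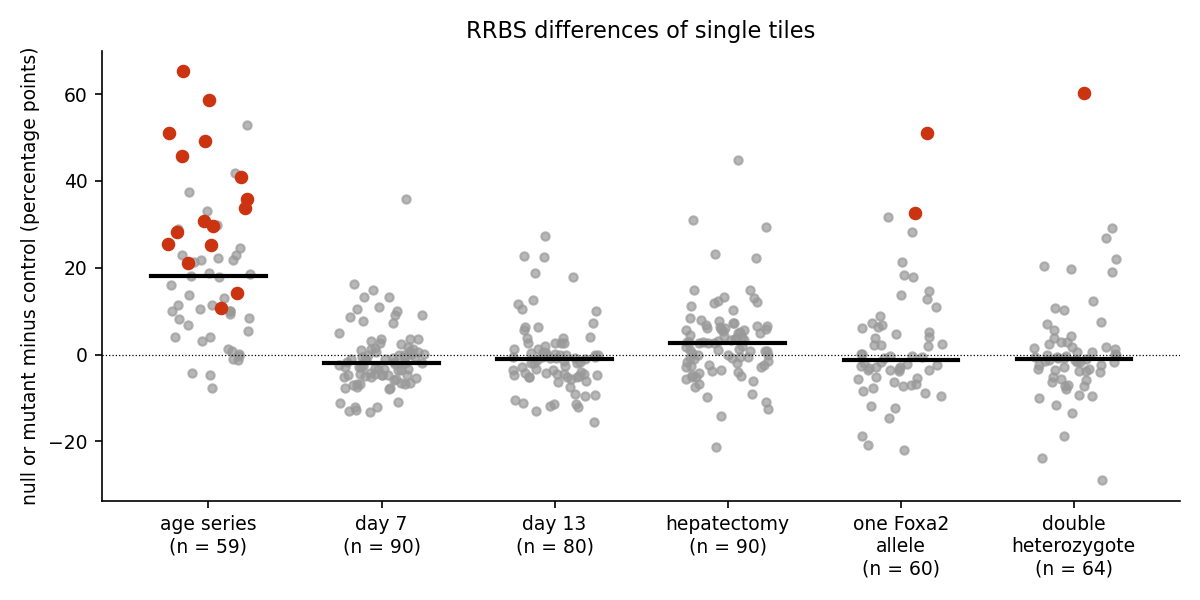
RRBS difference of null or mutant minus control (percentage points) at each tile in low-control sites, in 6 comparisons; red points passed a limma adjusted p of 0.05, grey points did not, and black lines are medians. The age series is centred at 18.1 points with 16 red points, the day 7, day 13 and hepatectomy comparisons have none, and the comparisons on the right use the age series controls.

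The age series difference was set directly against the adult ones in an interaction test over all tiles. The difference was larger in the age series than at day 7 at 55 of 57 tiles, with a median of 19.1 points (0.20 over all tiles), and 2 tiles passed (background 0.0111% larger, 0.00139% smaller). It was larger than at day 13 at 51 of 59 tiles, with a median of 16.9 points, and 1 passed (background 0.00624% and 0.000567%). It was larger than after hepatectomy at 52 of 56 tiles, with a median of 17.1 points, and 1 passed (background 0.00276% and 0.000276%). The chromosome 3 tile passed all 3 tests, with a larger rise by 55.7 points (SE 3.66, limma adjusted p = 4.79e-07), 51.9 points (SE 4.18, limma adjusted p = 2.01e-05) and 46.1 points (SE 3.92, limma adjusted p = 5.52e-05). The other was chr5:125537601-125537700 against day 7, by 25.7 points (SE 3.74, limma adjusted p = 0.0208), where the age series nulls had 24.1% to 32.7% and the controls 2.9% to 10.3%. On a logit scale none of these differences passed. Without the 20-day control the counts were 5, 4 and 2 against day 7, day 13 and hepatectomy, and without the 4-month null 3, 3 and 2. The count against day 7 was 1 without the first or second day 7 null or the third control, and that against day 13 was 2 without the 8-week null, the first day 13 null or either day 13 control.

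At low-control sites, livers that kept a Foxa allele through development lay above the 8-week control in the mean, but nearer to it than to the double null. Over the 59 tiles measured in all 8-week libraries, the mean was 12.2% in the age series control and 34.6% in the developmental double null. It was 17.6% and 16.4% in the FoxA1L/L;FoxA2L/+ livers and 14.5% and 18.0% in the FoxA1L/+;FoxA2L/+ livers. Both FoxA1L/L;FoxA2L/+ livers lay below the double null at 48 of 59 tiles (background 51.6%) and above it at 2 (background 15.3%). Both FoxA1L/+;FoxA2L/+ livers lay below it at 46 (background 51.4%) and above it at 1 (background 16.1%). Both livers of these genotypes were above the 8-week control at 17 of 59 (background 18.3%) and 16 of 59 tiles (background 19.3%). Against the 4 age series controls, their means over the 51 tiles differed by 2.43 and 1.97 points. At listed sites with a higher control level the differences were 7.68 and 6.62 points, and at unlisted low sites -1.69 and -2.16 points. The 8-week control and double null belong to the age series, which was offset from all other RRBS libraries, as given below.

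Against the 4 age series controls, 2 of 60 tiles rose in FoxA1L/L;FoxA2L/+ livers (background 0.106% higher, 5.9% lower) and 1 of 64 in FoxA1L/+;FoxA2L/+ livers (background 0.12% and 5.97%), and none fell. These comparisons share their controls with the age series and with each other. The median tile differed by -1.25 and -0.98 points, and that over all tiles by -1.59 and -1.52. Both sets of livers were thus low against these controls across the genome. Outside FoxA sites, 9001 to 13056 tiles were at 0% in the age series libraries, nulls included. In all other RRBS libraries 25839 to 41149 were. Both comparisons cross that offset, and whether it reflects the libraries was not tested. The called tiles of FoxA1L/L;FoxA2L/+ livers were the chromosome 16 tile, with a difference of 51.2 points (limma adjusted p = 0.01), and the chr5:130549201-130549300 tile, with 32.6 points (limma adjusted p = 0.0487). The count became 0 without the first FoxA1L/L;FoxA2L/+ liver, 1 without the second or without the 8-week, 4-month or 6-month control, and 4 without the 20-day control. The called tile of FoxA1L/+;FoxA2L/+ livers was chr11:115105201-115105300, at 72.3% and 86.7%. The count for this genotype became 0 without either of its livers or without the 8-week control, and 3 without the 20-day control. That tile varied widely elsewhere, from 2.9% in the 6-month null to 96.2% in a day 13 null, and with 50.8% and 85.4% in day 13 controls. Its middle lies in a pair of overlapping sites, among them the chromosome 11 site named above for its adult null level.

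Methylation around the low-control sites formed a trough in the controls that was shallower in the nulls. The sites were chosen as low in WGBS controls and higher in developmental nulls, so the choice shapes both features. No profile around unlisted low sites is given beside it. Tiles were grouped by distance from the middle of the nearest low-control site, leaving out, beyond 200 bp, tiles inside other listed sites. Within 100 bp (33 tiles) the mean was 11.3% ± 6.59 (SD, n = 4) in age series controls and 30.4% ± 6.12 in nulls. From 200 to 500 bp (60 tiles), outside the sites, it was 35.9% ± 9.00 and 56.9% ± 2.67. All 4 nulls were above all 4 controls in both ranges, and the differences, 19.2 and 21.0 points, were alike. From 500 to 1000 bp (125 tiles) the means were 59.4% ± 3.58 and 66.4% ± 2.41, from 1000 to 2000 bp (376 tiles) 55.7% ± 1.98 and 58.1% ± 0.621, and from 10000 to 20000 bp (3755 tiles) 52.2% ± 0.582 and 52.9% ± 0.469. The 20-day control was again the highest control in the 200 to 500 bp range, at 49.2% against 29.2% to 32.8%.

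**Figure D4:**
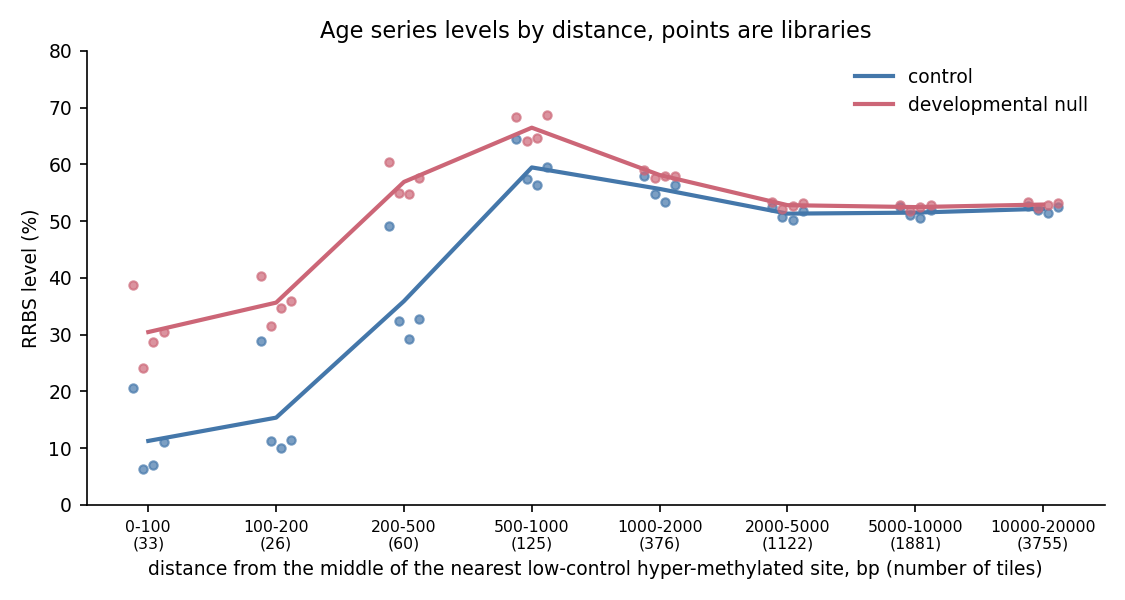
RRBS methylation level (%) in the 4 controls and 4 developmental nulls of the age series by distance from the middle of the nearest low-control site; points are libraries and lines group means, and the number of tiles is given under each range. Controls rise from 11.3% within 100 bp to 59.4% at 500 to 1000 bp. The nulls lie 19.2 points above them within 100 bp and 0.75 points above them beyond 10000 bp. The choice of sites by WGBS shapes the low centre in controls and the difference there.

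The low-control sites were spread over all 19 autosomes, mostly as single sites. They covered 917 separate regions, of which 786 held 1 site, and the median distance between neighbouring middles was 249009 bp. They made up 4.88% of all 21740 FoxA sites with a control level below 20%, and between 3.38% and 6.51% of them on each chromosome. Joining sites with middles within 2000 bp gave 904 clusters, of which 124 held 2 sites, 12 held 3 and 3 held 4. Of the low-control sites, 25.9% overlap another one and thus share sequence with it. Overlap within their own class was 18.6% at listed sites with a higher control level and 44.3% at unlisted low sites. The median distances between neighbouring middles there were 162408 bp and 929 bp. These classes hold 1644 and 20679 sites, and spacing and overlap depend on that number. The values therefore do not show whether low-control sites are clustered or sparse.

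FoxA sites near a low-control site were more often listed than distant ones. A site counted at a distance from a low-control site may overlap another one, so the nearest range can include overlapping sites. Of 144 low-methylated FoxA sites with a middle 400 to 1000 bp from that of a low-control site, 24 (16.7%) were low-control listed sites themselves. The share was 10.1% at 1000 to 2000 bp, 9.56% at 5000 to 10000 bp and 5.95% at 10000 to 50000 bp, against 4.88% overall. Around unlisted low sites it was 3.11% at 400 to 1000 bp. Around listed sites with a higher control level it was 11.6% at 400 to 1000 bp and 5.40% at 10000 to 50000 bp. The order is thus not particular to low-control sites. These shares describe the list and were not tested.

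The 3 largest clusters held 4 low-control sites each. At chr2:147757533-147758146, a single run of 4 overlapping sites, the mean over the sites was 8.97% and 1.33% in controls and 47.6% and 38.7% in developmental nulls. At chr9:50409430-50410287 the 4 overlapping sites had 7.51% and 8.39% in controls, 47.5% and 54.0% in developmental nulls, and 6.16% and 5.93% in adult nulls. At chr8:25683450-25685092, which holds 2 separate regions, they had 5.81% and 8.46%, 35.7% and 50.8%, and 4.22% and 6.39%. On chromosome 9 both adult nulls lay below both controls, and on chromosome 8 their ranges overlapped. All FoxA sites in the spans on chromosomes 2 and 9 were listed, and 4 of 5 in that on chromosome 8.

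HNF6 peaks overlapped fewer of the listed sites, low-control or not, than of the unlisted low sites. In the first control list, whose 5767 peaks were called by the authors on a single library, 46 of 1061 sites (4.34%, Wilson 95% interval 3.27% to 5.73%) overlapped a peak, against 2178 of 20679 unlisted low sites (10.5%, 10.1% to 10.96%). In the second it was 41 sites (3.86%) against 8.95%, and in the third, with 1770 peaks, 12 (1.13%) against 2.73%. The listed sites with a higher control level had lower shares still, of 3.41%, 2.43% and 0.487% in the same lists. Peaks in all 3 control lists lay at 11 sites (1.04%, 0.580% to 1.85%) in 10 separate regions, against 2.68% of unlisted low sites. The third list decides this number: peaks in both other lists lay at 35 sites (3.30%). Intervals cover counting error only, and overlapping sites share peaks. Where a peak of the first control list was present, its fold enrichment over input, a value of the authors' deposited table, had a median of 9.72 at low-control sites and 10.9 at unlisted low sites.

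Lists of the developmental nulls had an HNF6 peak at 4 (0.377%) and 1 (0.0943%) of the 1061 sites, and those of the adult nulls at 17 (1.60%) and 28 (2.64%). At unlisted low sites the shares were 2.40% and 1.38%, and 8.41% and 11.3%. Listed sites with a higher control level had shares near those of the low-control sites, 0.365% and 0.122%, and 1.70% and 2.80%. Of the 35 sites with a peak in control lists 1 and 2, 32 (91.4%) had none in either developmental null list, and 14 (40%) had none in either adult null list. Of the 1645 such unlisted low sites, 65.9% had none in either developmental null list and 8.15% none in either adult null list. For the 36 such listed sites with a higher control level, these shares were 83.3% and 16.7%. The developmental null lists held 3122 and 1188 peaks and the adult ones 4028 and 5678, and the adult lists came from another version of the peak caller with wider peaks (median 307 and 320 bp, against 82 to 150 bp), so lists of different groups differ in more than the genotype.

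**Figure D5:**
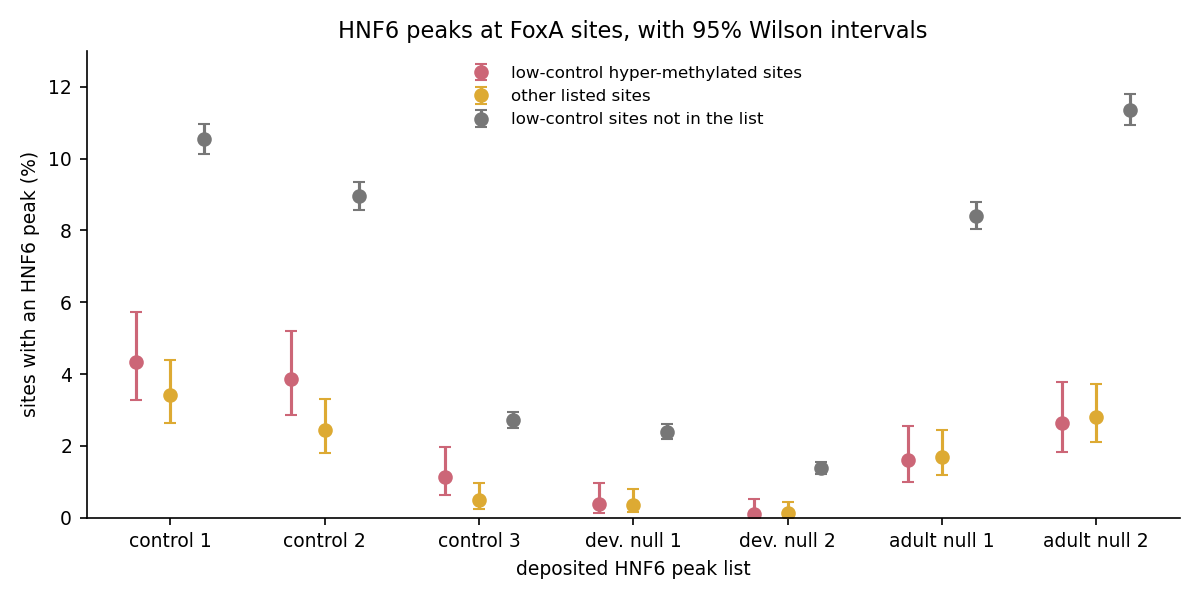
Share of sites (%) overlapping an HNF6 peak in each of the 7 deposited lists, for low-control hyper-methylated sites, other listed sites and unlisted low sites; bars are Wilson 95% intervals, which cover counting error only. Low-control sites lie at 4.34% in the first control list and at 0.377% and 0.0943% in the developmental null lists, under the unlisted low sites in every list.

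Methylation levels were given side by side for low-control sites with and without HNF6, without a test. The 35 sites with a peak in control lists 1 and 2 had a median of 11.8% in controls, 47.4% after developmental loss and 10.4% after adult loss. The 1009 sites without a peak in any control list had 11.8%, 42.2% and 12.0%. The site chr19:26494256-26494655 had the strongest peak of control list 1 among sites bound in all 3 control lists and in no developmental null list. The authors' deposited tables gave this site folds of 20.0, 13.2 and 5.00 in the control lists and no peak in any null list. Its methylation was 16.1% and 17.4% in controls, 48.6% and 54.8% after developmental loss and 8.75% and 8.11% after adult loss. The overlapping sites chr14:36498264-36498663 and chr14:36498324-36498723 shared peaks with deposited-table folds of 16.5, 20.8 and 7.51 in control lists and 22.5 and 16.0 in adult null lists, and none in developmental nulls; the authors' folds of lists from different callers are not comparable. Both had methylation levels of 5.26% and 12.8% in controls, 30.5% and 59.7% in developmental nulls and 7.89% and 8.93% in adult nulls. At chr15:66014472-66014871 the controls were at 0% in both libraries, the developmental nulls at 37.8% and 17.9%, and the adult nulls at 2.22% and 0%.

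Only 1 low-control site, chr16:24078272-24078671, overlapped an HNF6 peak in all 7 lists. The authors' deposited tables gave it folds of 41.1, 35.5 and 13.4 in the control lists, 11.9 and 10.2 in the developmental null lists, and 52.8 and 51.1 in the adult null lists. Its methylation was 19.05% and 4.17% in controls, 53.8% and 28.6% in developmental nulls, and 0% and 20.6% in adult nulls.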

How the data were processed

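Files of 6 WGBS, 27 RRBS and 7 HNF6 ChIP libraries were used. The authors deposited methylation levels as fractions from 0 to 1 per 400 bp site and per 100 bp tile, which were multiplied by 100. Reads were trimmed with Trim Galore 0.3.3 and aligned to mm9 with BSMAP 2.74, per the submitters' processing notes. No source used here gives the summary step per site or tile. In the adult WGBS table, a column whose header names developmental null 1 repeated the control 2 level at all 28654 common sites, within 0.0001 points, and was not used. HNF6 peaks were called per library against input, with MACS 2.1.1.20160309 for control and developmental null lists and MACS 1.4.3 for adult null lists, per the file headers; fold enrichments (ratios) are the authors' deposited values. HNF4A and H3K27ac libraries were not used here.

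Tiles and sites were tested on the percent scale by limma 3.58.1 (R 4.3.3; moderated test, variance trend), Benjamini-Hochberg adjustment over all features at 0.05, and a spread from all RRBS groups (or all 6 WGBS libraries). A tile needed a value in every library of its comparison. The fitting code was tested on simulated data. Peaks were counted at an overlap of 1 bp (Python 3.11.15, scipy 1.17.1). Alternatives were a logit scale, level filters, a spread from the compared groups alone, missing values allowed, whole tiles, a control limit of 15%, each library left out, stricter peaks and wider merging.

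The sites, the alternatives and the lists were chosen with earlier results of these data known. The named sites are the largest age series, WGBS and adult differences, the 3 largest clusters and the strongest HNF6 peaks by control list 1. Also named are the values at each threshold, tiles called in another comparison, and the extremes at 8 weeks. The lists of liver and other cell type genes need an mm9 annotation and were not tested. A WGBS library left out leaves an arm of 1 library, which is assumed to vary like the other groups.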

Additional observations from a re-analysis of the deposited data

Results flagged for a closer look

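At chr8:129330001-129330100 the 20-day developmental null, at 87.5%, stood apart from the other 3 nulls of the age series, at 69.2% to 71.7%. Among groups of 4 like libraries chance gives such a gap in about 1 of 20. This tile was picked for its gap and the 4 libraries differ in age, so that rate does not measure it. The age series difference itself differed from that of another experiment at tiles in 2 low-control sites, by limma's interaction test over all tiles. At chr3:121171901-121172000 the rise was larger by 55.7 points than at day 7, by 51.9 points than at day 13 and by 46.1 points than after hepatectomy. At chr5:125537601-125537700 it was larger by 25.7 points than at day 7.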

How the results depend on the processing

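Under every alternative run, 0 low-control tiles rose at day 7, at day 13 and after hepatectomy, and 0 low-control sites in adult null WGBS. This says nothing of stability, since almost no feature of the genome passed there (0 of 28654 WGBS sites, or 1 higher and 3 lower of 21891 with control levels of 5 to 95%). No low-control tile fell in the age series. The age series count of 16 was 8 on a logit scale, 29 with a replicate block by age, 1 with the spread of the compared groups, 8 of 32 tiles at a control limit of 15%, and 10 to 22 with 1 library left out. It stayed within 1.5 times with levels of 5 to 95%, missing values, whole tiles and without both 20-day libraries, the last chosen after seeing the data. For FoxA1L/L;FoxA2L/+ livers the count of 2 was 1 with levels of 5 to 95%, 0 with the spread of the compared groups, 1 with missing values allowed, 1 at the 15% limit, and 0 to 4 with 1 library left out. For FoxA1L/+;FoxA2L/+ livers the count of 1 was 0 with levels of 5 to 95%, 0 with the compared groups' spread, 0 at the 15% limit and 0 to 3 with 1 left out. The interaction counts of 2, 1 and 1 (day 7, day 13, hepatectomy) were 0, 0 and 0 on a logit scale and 1 to 5, 1 to 4 and 1 to 2 with 1 library left out. Against day 13, levels of 5 to 95% gave 2 and a replicate block by age and number gave 2. The causes were not tested. The share of sites with HNF6 in all 3 control lists was 1.04% to 3.30% with 1 list left out.

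Same-age libraries of the age series deviated together at r = 0.39, 0.12, 0.16 and 0.06 (20 days, 4, 6 months, 8 weeks). The 4-month null correlated best with the 6-month control, so ages were not treated as pairs. In the other experiments same-numbered libraries correlated at -0.04 to 0.01, and a block left their counts at 0. Among the interaction counts, the block changed only that against day 13, from 1 to 2. No paired analysis was possible for livers with a Foxa allele left because they share too few ages with the controls. Unknown coverage limits every level, and 957 low-control sites had no RRBS tile.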
